A study of Mus musculus with 6 samples.

Results

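Peroxisomes of the liver were described here through 42 genes for their enzymes, membrane transporters and assembly factors, found by symbol among the 55487 genes of the deposited tables, each in 1 row. All 42 passed the filter on low counts and were among the 14286 genes tested, Hao2 through its counts in the controls alone. They comprised 10 enzymes of peroxisomal β-oxidation, 13 peroxins and 19 other members: 6 transporters and membrane proteins, 8 thioesterases, nudix hydrolases and other acyl-CoA enzymes, 2 enzymes of α-oxidation, and catalase with 2 hydroxyacid oxidases. The members were compared between 3 mutant and 3 control livers of male C57/Bl6J mice on a high-fat diet, measured by poly(A) RNA-seq. By the genotype labels the mutants carried the Rxra f/f allele together with Alb cre +/-, and the controls Alb cre +/- alone. Both groups would then carry Cre recombinase under the promoter of albumin, a hepatocyte gene. The sample titles, however, call the controls WT and the mutants Cre, and the values here do not settle which holds. The study's design text speaks of an S65A form of the Rxra protein, which the genotype labels do not name. The labels give no age, nor whether the libraries come from different mice; the p-values therefore speak only of library-to-library spread, which may be technical.

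Peroxisomes shorten fatty acids that mitochondria handle poorly, such as very long, branched and dicarboxylic chains, and the side chain of bile acid precursors. Their oxidases make hydrogen peroxide, which catalase removes. Peroxins import the matrix enzymes, insert membrane proteins and divide the organelle. In mouse liver many of the β-oxidation genes are classical targets of PPARα, a nuclear receptor that binds DNA as a dimer with RXRα, the product of Rxra, at a direct repeat of AGGTCA half-sites spaced by 1 base.

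The start regions of Ehhadh, Phyh and Hao2, and of members nearest to such a repeat, are shown from RefSeq (GRCm38.p6, the assembly of mm10). Sequences read 5′ to 3′ on the strand of the gene. The start regions run from 250 bases before to 50 bases after the start. Capitals mark the 13 bases nearest to AGGTCA, any base and AGGTCA again, on either strand. Start regions were found for 34 of the 42 members, and Pxmp2 and Abcd2 are not among them.
Ehhadh, chr16:21787785-21788084, minus strand: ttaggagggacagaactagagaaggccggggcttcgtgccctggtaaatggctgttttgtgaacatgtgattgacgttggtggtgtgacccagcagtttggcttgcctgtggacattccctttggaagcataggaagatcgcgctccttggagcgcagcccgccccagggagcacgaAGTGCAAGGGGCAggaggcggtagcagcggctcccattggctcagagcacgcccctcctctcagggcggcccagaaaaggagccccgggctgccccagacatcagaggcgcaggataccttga
Phyh, chr2:4918746-4919045, plus strand: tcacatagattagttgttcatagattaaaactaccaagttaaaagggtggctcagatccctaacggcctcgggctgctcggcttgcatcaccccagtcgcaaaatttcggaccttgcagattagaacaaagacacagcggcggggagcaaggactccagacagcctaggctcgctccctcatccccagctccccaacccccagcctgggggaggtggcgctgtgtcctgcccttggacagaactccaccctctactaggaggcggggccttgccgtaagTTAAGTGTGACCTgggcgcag
Hao2, chr3:98893181-98893480, minus strand: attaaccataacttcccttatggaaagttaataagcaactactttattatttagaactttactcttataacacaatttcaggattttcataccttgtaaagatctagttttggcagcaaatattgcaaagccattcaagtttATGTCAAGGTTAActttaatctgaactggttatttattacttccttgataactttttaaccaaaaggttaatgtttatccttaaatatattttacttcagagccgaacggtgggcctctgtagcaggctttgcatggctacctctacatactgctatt
The nearest match of Ehhadh had 4 mismatches to the repeat, that of Phyh 3 and that of Hao2 4. Allowing 2 mismatches, the repeat was matched in 3 of the 34 members, Acox2, Cat and Acot4, or 8.82%, and in 4.40% of all 27025 genes of the table. Those 3 matches are shown with 20 bases on each side.
Acox2, within chr14:8258790-8259089, minus strand: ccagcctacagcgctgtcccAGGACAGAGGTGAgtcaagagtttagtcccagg
Cat, within chr2:103485104-103485403, minus strand: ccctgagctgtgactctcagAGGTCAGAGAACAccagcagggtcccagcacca
Acot4, within chr12:84038129-84038428, plus strand: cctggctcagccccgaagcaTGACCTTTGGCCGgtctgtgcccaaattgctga
The matches of Acot4 and Phyh lie on the strand opposite to the gene, so their capitals read as the reverse complement of the repeat. Of these 3 genes Acox2 rose in the mutants and the other two did not pass the test, as given below. The start regions also differed in CG dinucleotides, counted over 300 bases and taken as the highest count over the starts of a gene. The median was 19 for 11 peroxins, 14.5 for 8 β-oxidation enzymes and 13 for 15 other members, against 8 over all genes of the table. The lowest counts among the members were 2 for Hao2 and Acot3, 4 for Acox2 and Acaa1b and 5 for Hao1, and the highest were 39 for Pex5 and 45 for Abcd3.

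Library totals lay between 35847386 and 43162557 estimated counts in the mutants and between 38766643 and 40155170 in the controls. Rxra, the targeted gene, had 700, 522 and 609 CPM in the mutants and 501, 471 and 414 CPM in the controls and did not pass the test (edgeR adjusted p = 0.0724), and a value for the whole gene cannot show which form is transcribed. The 6 hepatocyte markers made 76069 to 82897 CPM in the mutants and 64171 to 77143 CPM in the controls, and 4 of them rose. Markers of other liver cells were lower in sum in the mutants, with 5.52 to 6.87 CPM against 16.4 to 19.0 CPM for 5 markers of monocyte-derived macrophages, of which 3 fell, and 116 to 143 CPM against 217 to 251 CPM for 5 stellate cell markers, of which 4 fell. The 5 Kupffer cell markers gave 74.7 to 153 CPM against 166 to 230 CPM, the 5 endothelial markers 60.9 to 89.6 CPM against 79.8 to 144 CPM, with 1 lower in each list. The 5 cholangiocyte markers gave 32.0 to 47.3 CPM in the mutants and 62.7 to 91.5 CPM in the controls, with 1 higher and 1 lower. These counts of markers stand beside 6.64% higher and 6.82% lower over all genes tested. Of 5 adipocyte markers Cfd alone was tested, the other 4 were at or near 0, and Lep was at 0 in all libraries. Cfd had 0.131, 0.0620 and 0.129 CPM in the mutants and 23.6, 9.51 and 9.97 CPM in the controls. It passed the filter through the controls alone, so its call as lower is no support for a difference. The part of these cells in the results below was not tested, and in a bulk sample fewer cells of a type and less RNA per cell cannot be told apart.

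Of the 42 members 13 rose in the mutants, 2 fell and 27 did not pass the test (edgeR quasi-likelihood test, Benjamini-Hochberg adjusted p under 0.05 over all genes). The shares, 31.0% higher and 4.76% lower, stand beside 6.64% higher and 6.82% lower over all genes tested. Mutant and control libraries were fully apart for 26 members, or 61.9%, against 34.9% of all genes tested. Hao2, which had to differ since it was tested through the controls alone, is 1 of the 2 decreases and 1 of these 26 members. The other decrease is Abcd2. The median log2 fold change, mutant over control, was 0.26 over the members and 0.000249 over all genes tested, with 33 members above 0 and 9 below. These values follow TMM scaling, which sets the typical gene equal in both groups. With plain library totals the median of all genes moved to -0.40, and 3 members were then called higher and 11 lower, where 2.05% and 31.6% of all genes were. So each increase below is an increase relative to the typical gene. Over both directions 13.5% of all genes were called with TMM and 33.6% with library totals. Totals that leave out the Mup genes, a family of abundant urinary proteins, gave 4 members higher and 4 lower, beside 2.82% and 13.7% of all genes (16.5% in either direction). DESeq2 called 15 members higher and 3 lower, beside 9.46% and 10.3% of all genes (19.8% in either direction). The 13 increases fell to 5 with mutant replicate 1 left out, to 6, 5 and 7 with control replicate 1, 2 or 3 left out, and to 9 with mutant replicate 2 or 3 left out. The increases over all genes fell likewise, to 426 without mutant replicate 1, to 456, 465 and 464 without control replicate 1, 2 or 3, and to 690 and 758 without mutant replicate 2 or 3, against 949 with all libraries.

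**Figure D1:**
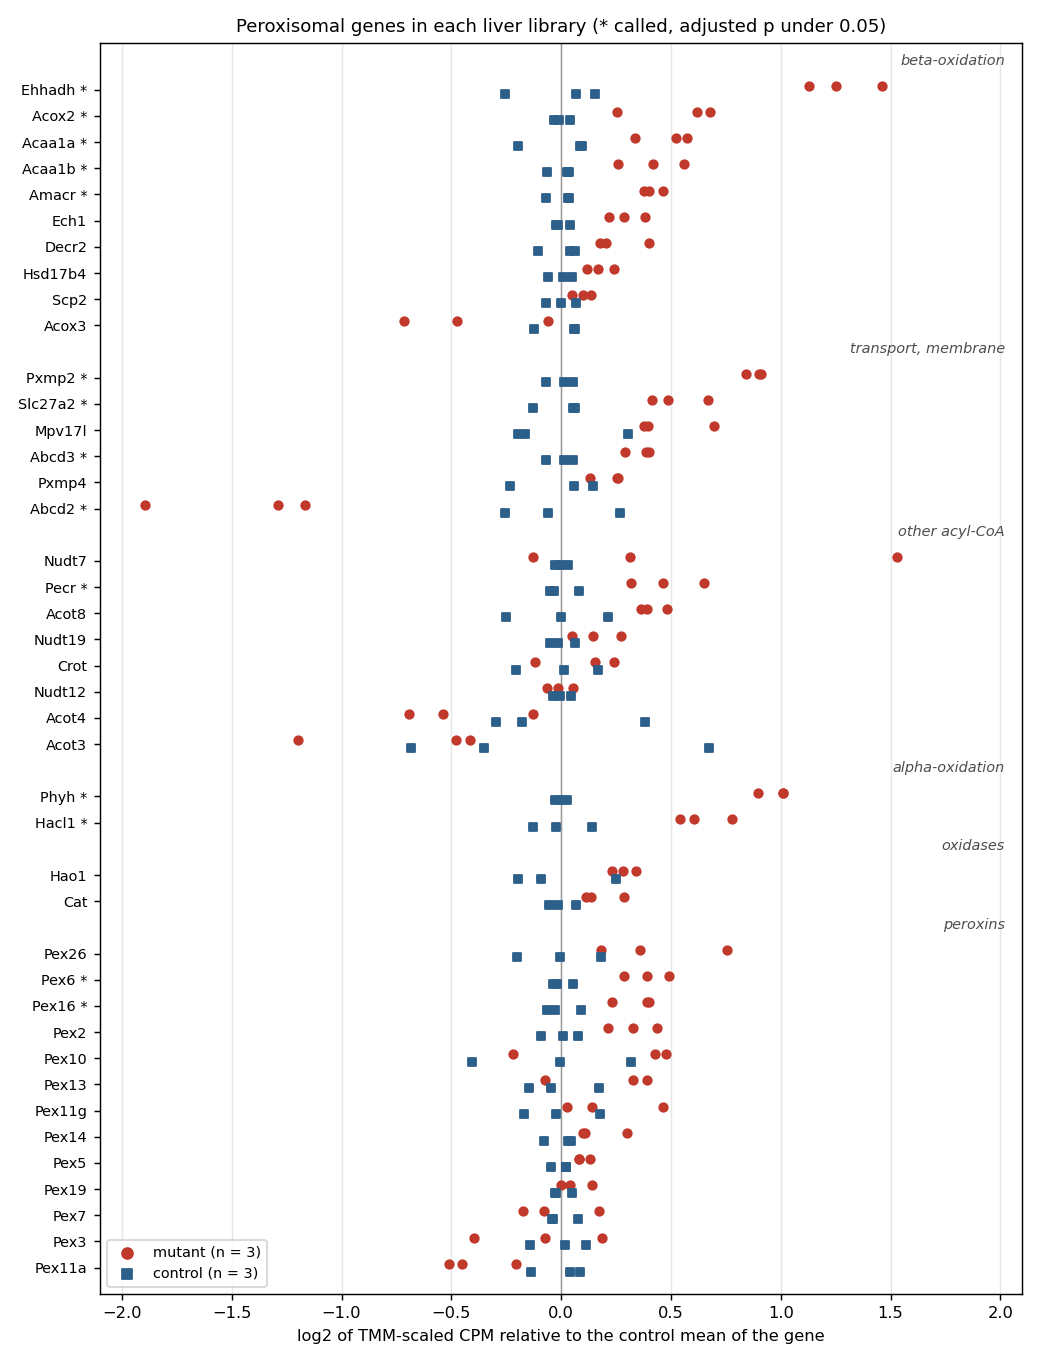
Level of 41 peroxisomal genes in each library, as log2 of TMM-scaled CPM over the control mean of the gene; circles are the 3 mutant and squares the 3 control libraries, and an asterisk marks a call at adjusted p under 0.05. Hao2, with 0 counts in the mutants, is left out; the mutant libraries of Ehhadh, Phyh and Pxmp2 lie right of their controls and those of Abcd2 left of them.

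Among the β-oxidation enzymes 5 of 10 rose, 0 fell and 5 did not pass, with a median log2 fold change of 0.35. At an unadjusted p under 0.05, 7 were higher and 1 lower, where 14.1% of all genes tested were higher and 14.9% lower at that threshold. DESeq2 called 6 higher and 0 lower, beside 9.46% and 10.3% of all genes. With library totals the median was -0.043 and 1 was called higher and 2 lower, beside 2.05% and 31.6% of all genes. The increase of Ehhadh, the L-bifunctional enzyme that hydrates and dehydrogenates acyl-CoA in the PPARα-responsive branch, was the largest of the 42 members. Ehhadh (chromosome 16, bases 21761287 to 21787807, mm10) had 1678, 1451 and 1330 CPM in mutant replicates 1 to 3, against 638, 678 and 510 CPM in control replicates 1 to 3. The lowest mutant lay above the highest control by nearly the whole control level, and Ehhadh rose 2.44-fold (log2 fold change 1.29 ± 0.14 SE, edgeR adjusted p = 0.00112). This fold change stood at percentile 97.8 of all genes tested.

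Hsd17b4, the D-bifunctional enzyme that does the same steps for branched chains and bile acid precursors, had 772, 710 and 733 CPM in the mutants and 626, 657 and 677 CPM in the controls. Its groups did not overlap, but the difference was small (log2 fold change 0.18 ± 0.09 SE) and did not pass (edgeR adjusted p = 0.212). Within a library, where no scaling enters, the TPM of Ehhadh was 1.93, 1.82 and 1.61 times that of Hsd17b4 in the mutants and 0.907, 0.918 and 0.671 times in the controls. So Ehhadh was the more abundant of both bifunctional enzymes per length in each mutant library and the less abundant in each control library.

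The thiolases that end the cycle rose less. Acaa1b, the more abundant of the paired 3-ketoacyl-CoA thiolase genes, had 2577, 2840 and 2306 CPM in the mutants and 1843, 1971 and 1963 CPM in the controls (log2 fold change 0.42 ± 0.10 SE, edgeR adjusted p = 0.0341). Acaa1a had 449, 464 and 394 CPM in the mutants and 333, 331 and 273 CPM in the controls (log2 fold change 0.48 ± 0.11 SE, edgeR adjusted p = 0.0284). The groups did not overlap for either gene, and of the fits that left out a library only the one without mutant replicate 3 kept either call. Both lie on chromosome 9 and are near-identical, so estimated counts may be split between them, and their sum had a log2 fold change of 0.43 ± 0.10 SE. Scp2, whose long form is the thiolase for branched chains and whose short form carries sterols, was the most abundant member, with 2379 ± 47.4 TPM in the mutants and 3370 ± 193 TPM in the controls (SD, n = 3 each). On the TMM-scaled scale it overlapped between groups, with 4422, 4697 and 4576 CPM in the mutants and 4068, 4275 and 4479 CPM in the controls (log2 fold change 0.095 ± 0.09 SE, edgeR adjusted p = 0.537).

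The enzymes that feed branched substrates into the cycle included further increases. Acox2, the oxidase for branched acyl-CoA and bile acid intermediates, had 291, 216 and 279 CPM in the mutants and 177, 180 and 187 CPM in the controls (log2 fold change 0.53 ± 0.12 SE, edgeR adjusted p = 0.0257). Amacr, the racemase that turns branched acyl-CoA to the form the oxidases accept, had 158, 165 and 155 CPM in the mutants and 122, 114 and 123 CPM in the controls (log2 fold change 0.41 ± 0.09 SE, edgeR adjusted p = 0.0177). Neither gene overlapped between groups. Mutant replicate 2 was the lowest mutant for Acox2, and of the fits that left out a library only the one without it kept the call of Acox2. Amacr lost its call without mutant replicate 1, control replicate 1 or control replicate 2. Acox3, the other oxidase for branched chains, had 22.3, 18.9 and 29.7 CPM in the mutants and 32.3, 28.4 and 32.2 CPM in the controls, with overlap (log2 fold change -0.39 ± 0.17 SE, edgeR adjusted p = 0.165). It was called lower without mutant replicate 3 (log2 fold change -0.59, edgeR adjusted p = 0.0359) and with library totals (-0.79, edgeR adjusted p = 0.0100), and was -0.26 without mutant replicate 2. Ech1, an isomerase, and Decr2, a reductase, both for unsaturated chains, had log2 fold changes of 0.30 and 0.26 without overlap between groups and did not pass (edgeR adjusted p = 0.0546 and 0.115). DESeq2 called Ech1 (adjusted p = 0.0136).

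Among the 6 transporters and membrane proteins 3 rose and 1 fell, beside 6.64% higher and 6.82% lower over all genes tested. Pxmp2, a pore-forming protein of the peroxisomal membrane, had 116, 121 and 121 CPM in the mutants and 67.2, 65.2 and 61.7 CPM in the controls. Its libraries were tight in each group and it rose 1.84-fold (log2 fold change 0.88 ± 0.09 SE, edgeR adjusted p = 8.5e-04). Slc27a2, an acyl-CoA synthetase for very long chains that also acts in fatty acid uptake, had 2387, 2704 and 2271 CPM in the mutants and 1771, 1782 and 1559 CPM in the controls (log2 fold change 0.53 ± 0.11 SE, edgeR adjusted p = 0.0166). Abcd3, a half-transporter for branched and dicarboxylic acyl-CoA, had 804, 859 and 866 CPM in the mutants and 683, 625 and 663 CPM in the controls (log2 fold change 0.36 ± 0.09 SE, edgeR adjusted p = 0.0300). Neither overlapped between groups. Slc27a2 lost its call without mutant replicate 1 or control replicate 3. Abcd3 lost its call whichever of the 6 libraries was left out, and its log2 fold change was -0.038 with library totals.

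Abcd2, a half-transporter for very long and polyunsaturated acyl-CoA, went the other way, with 26.3, 17.3 and 28.6 CPM in the mutants and 61.5, 53.8 and 77.3 CPM in the controls. The highest mutant lay well under the lowest control, and Abcd2 was 2.67-fold lower in the mutants (log2 fold change -1.42 ± 0.21 SE, edgeR adjusted p = 0.00458). Per length Abcd2 stood at 2.01%, 1.24% and 2.03% of the Abcd3 level in the mutants and at 5.54%, 5.29% and 7.18% in the controls, both in TPM within a library. Pxmp4 and Mpv17l, further membrane proteins, had log2 fold changes of 0.22 and 0.50 and did not pass (edgeR adjusted p = 0.257 and 0.0931).

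**Figure D2:**
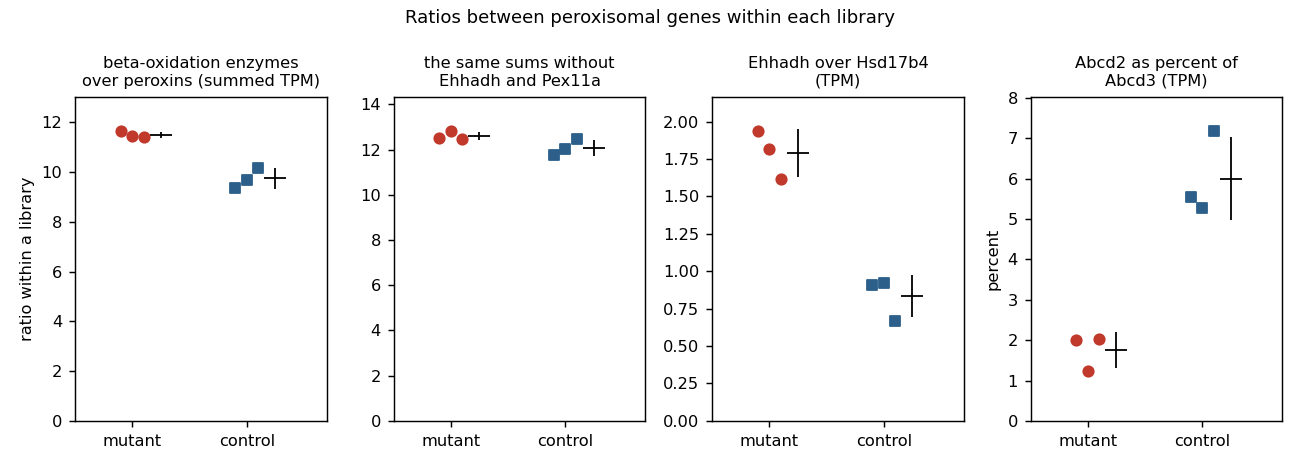
Ratios of TPM within each library, which no scaling between libraries changes, for the 3 mutant (left) and 3 control (right) libraries; the black mark is the mean with SD. Ehhadh over Hsd17b4 and Abcd2 over Abcd3 separate the groups, and the ratio of β-oxidation enzymes to peroxins does so with all genes but touches at 12.5 without Ehhadh and Pex11a.

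Both enzymes of α-oxidation, which removes a carbon from chains such as phytanic acid that carry a methyl branch, rose. Over all genes tested 6.64% rose. Phyh, the phytanoyl-CoA hydroxylase, had 2209, 2208 and 2046 CPM in the mutants and 1118, 1076 and 1101 CPM in the controls. Control replicates differed little, mutant and control libraries lay far apart, and Phyh rose 1.96-fold (chromosome 2, bases 4919019 to 4938730, log2 fold change 0.97 ± 0.09 SE, edgeR adjusted p = 5.9e-04). Hacl1, the lyase of the next step, had 319, 305 and 360 CPM in the mutants and 192, 231 and 206 CPM in the controls (log2 fold change 0.65 ± 0.11 SE, edgeR adjusted p = 0.00763). Its call was lost with library totals, where its log2 fold change was 0.25, and held in the 6 fits that left out a library. Per length Phyh passed catalase in the mutants, at 1.57, 1.60 and 1.31 times its TPM, and was under it in the controls, at 0.908, 0.849 and 0.822 times.

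Of the oxidases and catalase 0 of 3 rose and 1 fell. At an unadjusted p under 0.05, 1 was higher and 1 lower, beside 14.1% and 14.9% of all genes. Hao2, an oxidase of long-chain 2-hydroxyacids, had 0 counts in the 3 mutants and 0.718, 2.42 and 3.44 CPM in the controls. Since it entered the test through the controls alone, it had to differ there, and its call is no support for a difference. Against a floor of 3 counts over the mutants it was at least 73.8-fold lower, on 294 estimated counts over the controls, and the interval behind such a floor covers counting error only. Cat, catalase itself, had 2821, 2770 and 3123 CPM in the mutants and 2469, 2541 and 2686 CPM in the controls (log2 fold change 0.18 ± 0.09 SE, edgeR adjusted p = 0.248). Hao1, the glycolate oxidase, had 200, 209 and 194 CPM in the mutants and 144, 154 and 196 CPM in the controls, overlapping by control replicate 3 (edgeR adjusted p = 0.170).

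Among 8 thioesterases, nudix hydrolases and other acyl-CoA enzymes 1 rose, 0 fell and 7 did not pass, and 2 were higher and 0 lower at an unadjusted p under 0.05, beside 14.1% and 14.9% of all genes. Pecr, a reductase of trans-2-enoyl-CoA, had 130, 144 and 163 CPM in the mutants and 102, 101 and 110 CPM in the controls (log2 fold change 0.48 ± 0.11 SE, edgeR adjusted p = 0.0237), and lost its call without mutant replicate 3, control replicate 1 or control replicate 2. Acot8, a thioesterase of broad range, had a log2 fold change of 0.41 and did not pass (edgeR adjusted p = 0.0811). Crot, which moves medium-chain acyl groups to carnitine for export to mitochondria, had 1374, 1135 and 1459 CPM in the mutants and 1071, 1386 and 1247 CPM in the controls and overlapped. Nudt12, an NADH hydrolase, and Nudt19, a CoA hydrolase, had log2 fold changes of -0.0081 and 0.16.

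Acot3 and Acot4, thioesterases next to each other on chromosome 12 with similar sequence, had log2 fold changes of -0.66 ± 0.35 and -0.43 ± 0.20 SE and did not pass (edgeR adjusted p = 0.248 and 0.202). Acot3 had 22.7, 39.1 and 37.4 CPM in the mutants and 83.0, 40.9 and 32.4 CPM in the controls, so its control mean rests on control replicate 1. Without that library the log2 fold changes were -0.15 for Acot3 and -0.20 for Acot4, and with library totals both were called lower (-1.06 and -0.83). Summed with Acot5 and Acot6 the log2 fold change was -0.50 ± 0.23 SE. Nudt7, a hydrolase that breaks down CoA, had 199, 463 and 147 CPM in the mutants and 158, 164 and 160 CPM in the controls. The mutants spread on both sides of the controls, and mutant replicate 2 stood far above the others (log2 fold change 0.75 ± 0.36 SE, edgeR adjusted p = 0.210).

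Of the 13 peroxins 2 rose, 0 fell and 11 did not pass. At an unadjusted p under 0.05, 4 were higher and 1 lower, beside 14.1% and 14.9% of all genes. DESeq2 called 3 higher and 1 lower, beside 9.46% and 10.3% of all genes. Their median log2 fold change was 0.22, against 0.35 for the β-oxidation enzymes and 0.29 for the other 19 members. With library totals the median of the peroxins was -0.18, with 0 higher and 4 lower. Over all genes 2.05% were higher and 31.6% lower there, so these decreases were near the share over all genes. The median of the peroxins was 0.098 without mutant replicate 2 and 0.14 without control replicate 3, and between 0.17 and 0.26 without any other library. The log2 fold changes of the 13 lay between -0.38 for Pex11a and 0.45 for Pex26.

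Pex6, an ATPase that pulls the import receptor back out of the membrane, had 115, 123 and 106 CPM in the mutants and 85.2, 90.7 and 86.2 CPM in the controls (log2 fold change 0.39 ± 0.09 SE, edgeR adjusted p = 0.0296). Pex26, its anchor in the membrane, had a log2 fold change of 0.45 ± 0.17 SE, and its groups barely separated, at 32.9, 48.8 and 37.2 CPM in the mutants and 32.8, 28.8 and 25.2 CPM in the controls (edgeR adjusted p = 0.115). Pex16, which with Pex3 and Pex19 builds the membrane, had 100, 89.6 and 101 CPM in the mutants and 74.9, 81.3 and 73.2 CPM in the controls (log2 fold change 0.34 ± 0.10 SE, edgeR adjusted p = 0.0497). Of the 6 fits that left out a library, only that without mutant replicate 3 kept the call of Pex6 and only that without mutant replicate 2 the call of Pex16. With library totals their log2 fold changes were -0.0056 and -0.055.

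The import receptors Pex5 and Pex7 had log2 fold changes of 0.097 and -0.018, the docking factors Pex13 and Pex14 0.23 and 0.17, and the ubiquitin ligases Pex2 and Pex10 0.33 and 0.26. None of these 6 passed (edgeR adjusted p between 0.0781 for Pex2 and 0.938 for Pex7), nor did Pex3 and Pex19 with -0.075 and 0.062. Pex11a, the elongation factor of peroxisomes that PPARα ligands induce in mouse liver, had 161, 191 and 155 CPM in the mutants and 234, 227 and 201 CPM in the controls. Its groups did not overlap, with the mutants lower, and it did not pass (log2 fold change -0.38 ± 0.11 SE, edgeR adjusted p = 0.0563), while DESeq2 called it lower (adjusted p = 0.0184). Its relative Pex11g had a log2 fold change of 0.22 and overlapped between groups.

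Summed TPM sets the classes side by side without scaling between libraries. The β-oxidation enzymes made 11.6, 11.4 and 11.4 times the TPM of the peroxins in the mutants and 9.36, 9.70 and 10.2 times in the controls, or 11.5 ± 0.121 and 9.75 ± 0.409 (SD, n = 3 each). The other 19 members made 11.3 ± 0.195 times the peroxin TPM in the mutants and 8.38 ± 0.191 times in the controls. Much of the difference between groups in the first ratio came from 2 genes, Ehhadh and Pex11a. Pex11a also enters the second ratio, which was not recomputed without it. Pex11a made 16.6% of the peroxin TPM in the mutants and 22.8% in the controls, and without it and Ehhadh, a choice made after the values were seen, the ratio was 12.6 ± 0.183 in the mutants and 12.1 ± 0.372 in the controls, where the lowest mutant and the highest control were both 12.5. The 42 genes together made 1.28 ± 0.0325% of all TPM in the mutants and 1.47 ± 0.0337% in the controls, while they stood above the typical gene after TMM scaling.

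**Figure D3:**
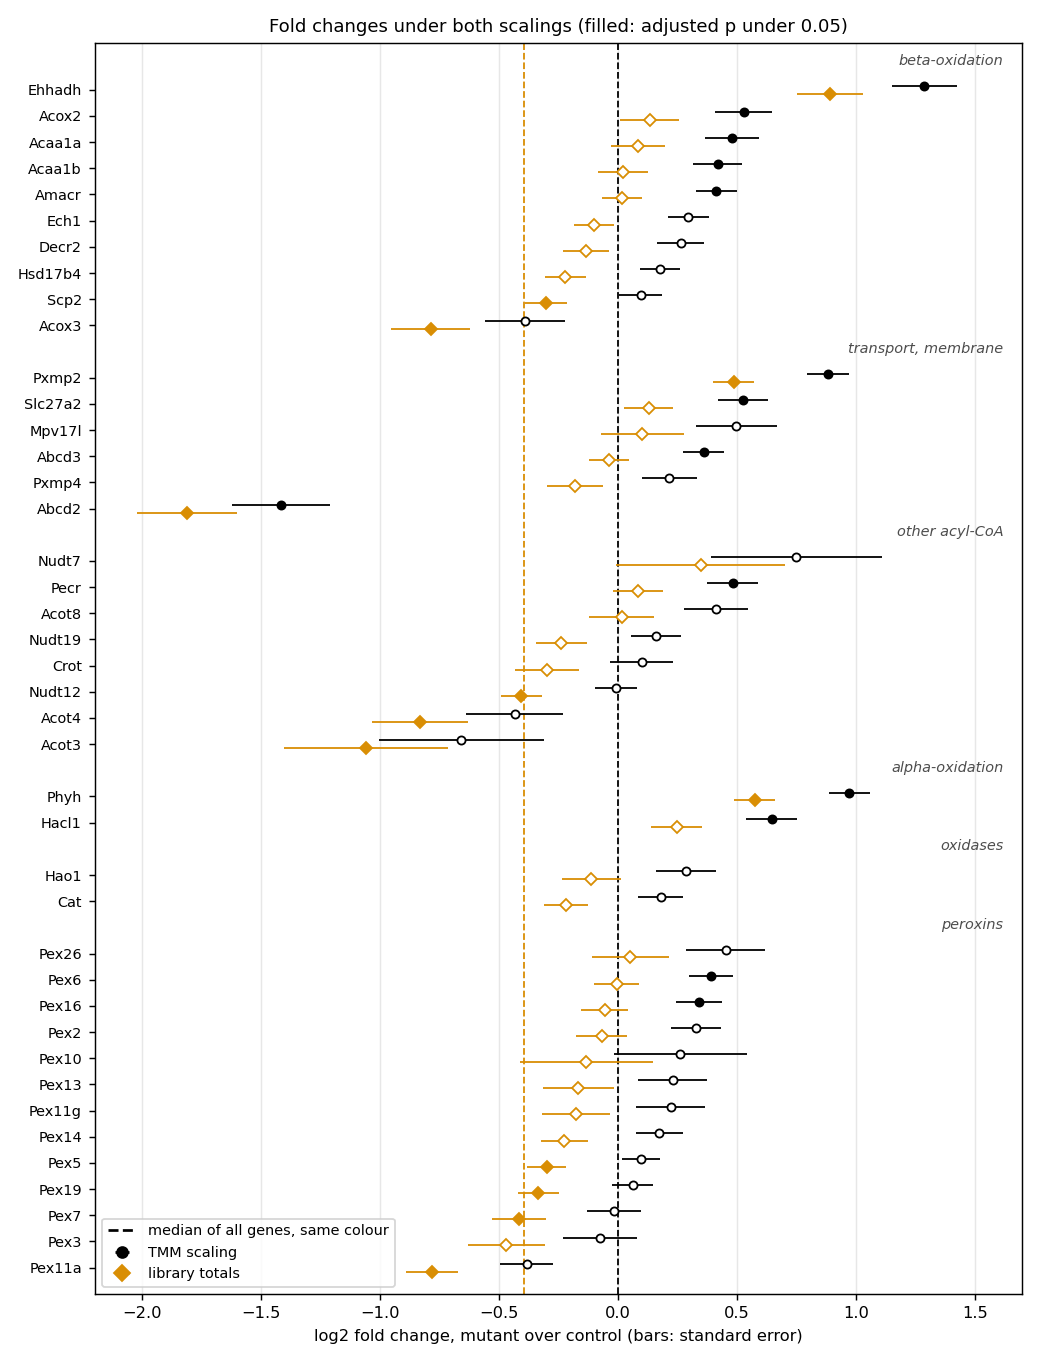
Log2 fold change, mutant over control, of 41 members with SE under TMM scaling (circles) and under library totals (diamonds), filled at adjusted p under 0.05; dashed lines are the medians of all genes tested, near 0 and at -0.40. Ehhadh, Pxmp2 and Phyh stay above 0 and called under both and Abcd2 below 0, while Abcd3, Pex6 and Pex16 change sign with library totals.

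The calls differed in how far they held. Over 15 alternative fits Ehhadh, Phyh and Pxmp2 stayed called higher and Abcd2 called lower in each. Hacl1 kept its call in 11 of 15, Slc27a2 in 8, Amacr and Pecr in 7, Acox2, Acaa1a and Pex6 in 5, Acaa1b in 4, and Abcd3 and Pex16 in 3. In the limma fits on TPM, 3 members were called higher and 21 lower at a TPM minimum of 1, where 1.88% and 63.6% of all genes were (65.5% in either direction), and Abcd3 was among the 21.

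**Figure D4:**
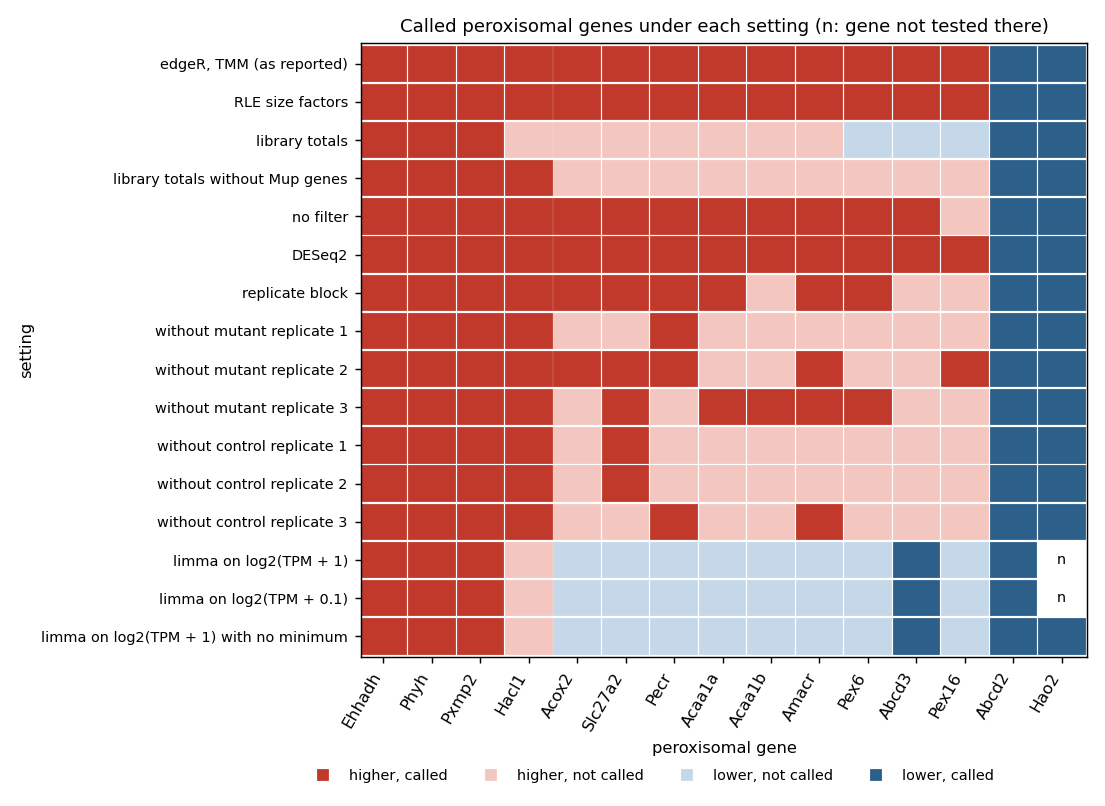
Direction and call of the 15 called members (columns) in the fit as reported and in 15 alternatives (rows); dark cells are called at adjusted p under 0.05, pale cells are not, and n marks a gene not tested. Ehhadh, Phyh and Pxmp2 are dark and higher in all rows, Abcd2 dark and lower in all rows, and most of the other increases turn pale in the fits that leave out a library and lower in the limma fits on TPM.

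Other peroxisomal genes outside the 42 were 36 in number, of which 33 were tested. There 7 rose, 2 fell and 24 did not pass, with a median log2 fold change of 0.19. The shares, 21.2% higher and 6.06% lower, stand beside 6.64% and 6.82% of all genes tested, so the decreases were near the share over all genes. Ephx2, the soluble epoxide hydrolase, had 1648 ± 85.5 CPM in the mutants and 778 ± 58.6 CPM in the controls (SD, n = 3 each, edgeR adjusted p = 5.9e-04). Agxt, the alanine-glyoxylate transaminase that clears the product of Hao1, had 272 ± 39.7 CPM in the mutants and 114 ± 5.08 CPM in the controls (edgeR adjusted p = 8.0e-04). Pipox, an oxidase of pipecolic acid and sarcosine, rose by 0.51 on the log2 scale.

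Of 17 genes of mitochondrial β-oxidation, the pathway that takes up the shortened chains, 9 rose, 0 fell and 8 did not pass, with a median log2 fold change of 0.31, and 16 were higher and 0 lower at an unadjusted p under 0.05, beside 14.1% and 14.9% of all genes. Etfb, an electron carrier subunit, had the smallest p, with 320 ± 16.6 CPM in the mutants and 187 ± 10.1 CPM in the controls (SD, n = 3 each, edgeR adjusted p = 0.00167). The increases of Acadvl, Cpt2 and Acaa2 were 0.53, 0.50 and 0.55 on the log2 scale. Among these 17 genes none reached the 2.44-fold increase of Ehhadh, as the largest log2 fold change was 0.77. Ppara, the gene of the receptor, had a log2 fold change of 0.26 and did not pass (edgeR adjusted p = 0.195). It was 1 of 5 genes listed for the RXR and PPARα axis, of which 0 rose and 1 fell, Rxrg, with 3.75 ± 0.795 CPM in the mutants and 7.14 ± 0.937 CPM in the controls (SD, n = 3 each, edgeR adjusted p = 0.0314); 2 were higher and 1 lower at an unadjusted p under 0.05, beside 14.1% and 14.9% of all genes.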

How the data were processed

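Poly(A) RNA-seq of 6 liver libraries was used. The authors deposited a table of estimated counts and a table of TPM for 55487 genes, and the tools cutadapt and STAR and the build mm10 are named per the submitters' processing notes. For the program behind the gene values, all versions, the annotation and strandedness, the entry is: not given in the sources used here. Columns were matched to samples by the titles. The deposited estimated counts, not all of them whole, were rounded. They entered edgeR 4.0.16 (R 4.3.3, filterByExpr, TMM, quasi-likelihood F-test on group, Benjamini-Hochberg over 14286 genes, called at adjusted p under 0.05). CPM are TMM-scaled, and standard errors follow from the F statistic. Class sums and ratios within a library use the deposited TPM. Alternatives were RLE size factors, library totals with and without the Mup genes, no filter, DESeq2 1.42.0, a replicate block, each library left out, and limma 3.58.1 on log2(TPM + 1) or log2(TPM + 0.1). The fits were also run on simulated data with 200 genes changed at random in both directions. A limit on false calls was set there for edgeR and limma but not for DESeq2. Since the typical gene was not shifted there, that run cannot speak on the choice of scaling. Coordinates are from GENCODE mouse release 21 (mm10), which held all 42 identifiers. Strandedness being unknown, reads of antisense neighbours may add to a member. On either strand, 19 members share exon bases with another gene, 10 of them at least 10% of their own, most in Pex11g (41.1%) and Nudt19 (35.0%). For Hacl1 (31.1%, with Gm49387) and Acot3 (11.5%, with Gm49366) the largest share is on the same strand, which knowing strandedness would not resolve. Members with a call had values printed for every library, up to 6 per class outside the β-oxidation enzymes and peroxins, and from the other lists up to 4 called genes with the smallest p were named. One gene that this rule names is not reported here. The members and lists were chosen with earlier results of these data known. With 3 libraries a group an exact permutation test cannot go below p = 0.1, so none is given.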

Additional observations from a re-analysis of the deposited data

How the results depend on the processing

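Ehhadh, Phyh, Pxmp2 and Abcd2 kept direction and call in all 15 alternatives. A TPM minimum removed Hao2 from the test in 2 of them. RLE size factors changed no call of a member. With library totals 293 genes were higher and 4508 lower over all genes, 3 and 11 of the 42 members, 1 and 2 of the β-oxidation enzymes, 0 and 4 of the peroxins and 2 and 5 of the other members; the class medians were -0.043, -0.18 and -0.11. Without the Mup genes in the totals the counts were 405 and 1968, 4 and 4, 1 and 1, 0 and 1, with 3 other members higher, and the medians 0.15, 0.014 and 0.077. The median of all genes was -0.40 and -0.21 in these fits, and the second tested 14372 genes; the cause was not tested. No filter gave 1 peroxin higher and 1 lower, and DESeq2 1 peroxin lower and 1472 genes lower over all genes. Limma on log2(TPM + 1) gave 217 and 7362 genes, 3 and 21 members, 1 and 5 β-oxidation enzymes, 0 and 7 peroxins and 2 and 9 others, with medians -0.24, -0.37 and -0.27. A pseudocount of 0.1 gave 211 and 7315, the same member counts and medians -0.24, -0.38 and -0.27. No TPM minimum gave 190 and 6391, 3 and 18, 1 and 5, 0 and 6, 2 and 7, and medians -0.24, -0.37 and -0.30. Leaving out a library gave 426 to 758 genes higher and 430 to 756 lower, 5 to 9 members higher and 2 to 3 lower, 1 to 4 β-oxidation enzymes higher and 0 to 1 lower, 0 to 1 peroxins higher and 0 to 1 lower, 4 to 5 others higher, and medians from 0.29 to 0.38, 0.098 to 0.26 and 0.20 to 0.31. The difference of the β-oxidation to peroxin ratio, 1.75, was 0.522 without Ehhadh and Pex11a and 1.15 without Pex11a, both chosen after seeing the data, and 1.56 to 1.96 without a library.

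Signs turned with library totals for Abcd3 (-0.038), Pex6 (-0.0056), Pex16 (-0.055), and, called lower there, Scp2 (-0.30), Pex5 (-0.30) and Pex19 (-0.34). In the limma fits on TPM with pseudocounts 1 and 0.1, signs turned to values alike within 0.02 in both, Acox2 (-0.079 and -0.080), Slc27a2 (-0.072), Acaa1a (-0.11), Pecr (-0.12), Acaa1b and Amacr (-0.18), Pex6 (-0.20 and -0.21), Abcd3 (-0.24), Pex16 (-0.25 and -0.26), Ech1 (-0.30), Decr2 (-0.33), Pxmp4 (-0.37), Pex11g (-0.37 and -0.38), Cat, Hsd17b4 and Pex14 (-0.42), Nudt19 (-0.43 and -0.44), Pex5 (-0.49 and -0.50), Scp2 and Crot (-0.50) and Pex19 (-0.53 and -0.54). With no minimum all of these had the values of pseudocount 1, and Crot, Pex11g and Pxmp4 were not called there. A further 54 values of members with no call in either fit changed sign. Same-numbered libraries did not deviate together (correlations 0.0167, -0.0032 and 0.0634). With 3 libraries a group such values cannot exclude that the numbers pair them. In the fit with the replicate block 775 genes were higher and 783 lower, 11 members higher and 2 lower, and 1 peroxin higher in place of 2. Hao2 and Pex10 had the lowest CPM of the members, and no value here measures how far depth limits them.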

Other observations

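The spread within a group was uneven among the peroxisomal genes. Nudt7 had a coefficient of variation of 62.9% over the mutants and 2.07% over the controls, and Acot3 27.2% over the mutants and 52.0% over the controls (SD over mean of TMM-scaled CPM, n = 3 each). Phyh had 4.34% over the mutants and 1.95% over the controls, and Pxmp2 2.58% and 4.31%. The share of Scp2 in the TPM of the 42 members was 18.6 ± 0.626% in the mutants and 22.9 ± 0.844% in the controls (SD, n = 3 each). The TPM of Acaa1b was 6.25 ± 0.206 times that of Acaa1a in the mutants and 6.59 ± 0.915 times in the controls, and control replicate 3 gave the highest of these ratios, 7.61.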
